A study of Drosophila melanogaster with 24 samples.

Results

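Of the 22575 spots on a Drosophila melanogaster expression array, 11 met a rule for spots bright in both the antenna and the proboscis and dimmer in the first legs. They were chosen on those levels. The level of a spot is log2 of its brightness above local background, set to 0 where negative, plus 50, after quantile normalisation over all 24 samples. A spot was kept when its 8 first-leg levels all lay below the other 16 levels, when its leg mean was at least 0.7 below the nearer of the other tissue means, and when that gap was at least as large as the difference between the antenna and proboscis means. All tissue levels, the gap and the antenna to proboscis difference are therefore given as a description and carry no test.

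The study measured adult male and female flies 1 to 2 hours after eclosion. The tissues were the antenna, taken as segment a3 with the arista, the front legs outward from the distal tibia, and the proboscis. There were 6 groups, 1 for each tissue in each sex, of 4 samples each. The flies are described as the isogenic line WI89 for the series, while the descriptions of single samples give RIL 58 or RIL 89, with 2 samples of each RIL number in every group. All groups shared the same amplification of messenger RNA, by reverse transcription and in vitro transcription with T7 RNA polymerase. Whether replicates are separate collections of flies is not stated, so p-values reflect the spread among these particular samples, part or all of which may be technical.

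The antenna detects most odours in flies, and its outermost segment carries the sensilla whose neurons detect odours. The proboscis bears the labellum, whose bristles and pegs hold taste neurons. The first legs also carry taste bristles on the tarsus and, in males, the sex comb. In all these organs the sensory neurons sit among support cells that secrete the fluid around their dendrites, together with cuticle, trachea and, in the proboscis and legs, muscle.

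No file names the gene behind a spot. The 11 spots are therefore given by number and by row and column on the array grid of 105 rows and 215 columns, and no gene name, function, sequence or position in the genome can be attached to them. For the same reason the labelled tissues could not be checked against marker genes. A sample is a single dye channel, and 12 samples were labelled with Cy3 and 12 with Cy5. The median brightness above background was 101.6 to 148.3 in Cy3 samples and 16.1 to 62.9 in Cy5 samples. By the correlation between their channels, 8 arrays formed one set and 4 another. This correlation was 0.599 to 0.723 in the first and 0.846 to 0.973 in the second. The set of 4 held 1 of the 8 leg samples.

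The 11 spots ranged from a gap that barely met the margin to one of several log2 units. The gap between the leg mean and the nearer tissue mean ran from 0.71 to 3.09 with a median of 1.63. The proboscis was higher than the antenna at 7 spots and the antenna higher than the proboscis at 4. Tissue means ran from 6.86 to 7.85 in the legs. Those of the antenna were 8.10 to 13.04 and those of the proboscis 8.02 to 10.55. In these whole-tissue samples, fewer cells of a type and less RNA per cell cannot be told apart.

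**Figure D1:**
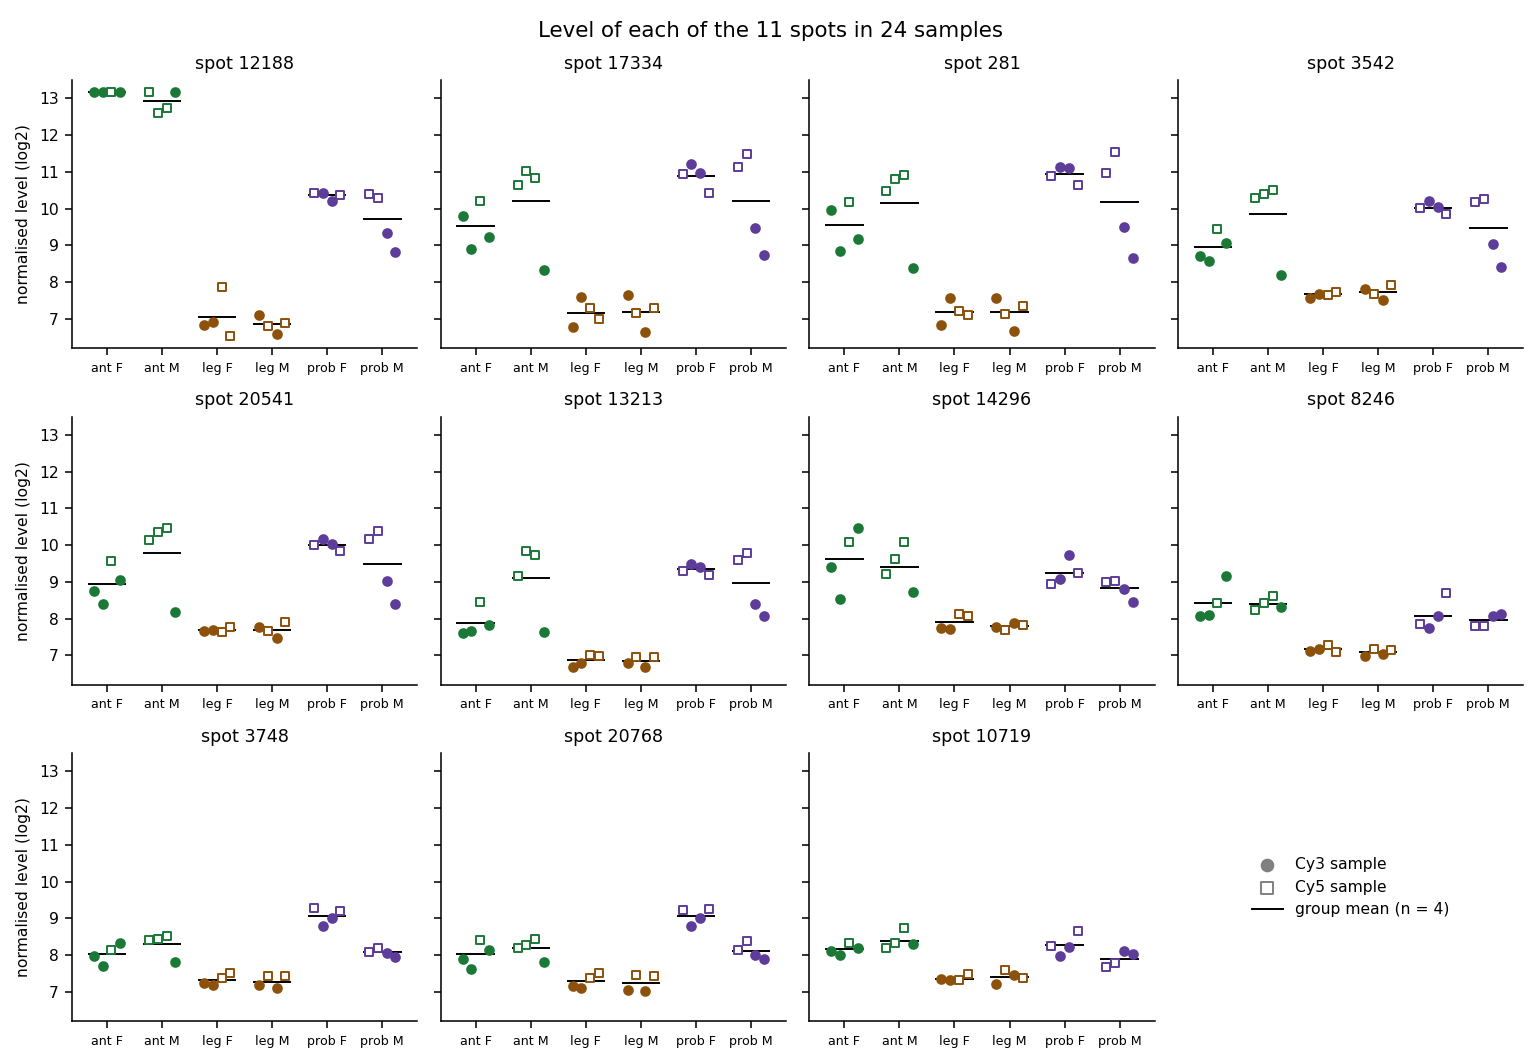
Level (log2, vertical axis) of each of the 11 spots in the 4 samples of each group of tissue and sex (horizontal axis; ant, antenna; prob, proboscis; F, female; M, male). Filled circles are Cy3 samples, open squares Cy5 samples and lines group means; at every spot all leg points lie below all other points, as the rule required, and at 6 of the 11 spots the lowest of the other points is a male Cy3 sample.

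Spot 12188, in row 57 and column 148, had the largest gap, 3.09. Its antennal level was 12.61 at the lowest, 13.16 at the median and 13.16 at the highest. Its leg level was 6.54 at the lowest, 6.87 at the median and 7.86 at the highest, and its proboscis level ran from 8.82 through a median of 10.33 to 10.44. The 3 tissues did not overlap at this spot. The antennal mean of 13.04 exceeded the proboscis mean of 10.04 by slightly less than the gap of 3.09, so the spot met the last criterion by a narrow margin. Of the 8 antennal samples, 6 shared the level 13.16 because the spot held the same rank in each of them before normalisation. On the linear scale its brightness above background in those antennae and the other 2 ran from 4730 to 19911, so the normalised level hides much of that range. The highest leg level came from female leg replicate 3, which shared its array with a female antenna whose level at this spot was 13.16. Without that sample the spot still met the rule.

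The next 2 spots formed a near-identical pair. Spot 17334, in row 81 and column 134, had a gap of 2.69, and spot 281, in row 2 and column 66, had a gap of 2.66. The antennal level of spot 17334 ran from 8.34 to 11.03 around a mean of 9.87. Its proboscis level was 8.73 at the lowest, 10.95 at the median and 11.49 at the highest, and its leg level was 6.64, 7.24 and 7.65 at those points. The legs lay apart from the other tissues, which overlapped each other over most of their range. Over the 24 samples the levels of spots 17334 and 281 correlated at r = 0.998 and differed by 0.092 on average.

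A second near-identical pair was formed by spot 3542, in row 17 and column 102, and spot 20541, in row 96 and column 116. Spot 3542 had mean levels of 9.40 ± 0.91 in the antenna, 7.70 ± 0.13 in the legs and 9.75 ± 0.67 in the proboscis (SD, n = 8). Spot 20541 had 9.36 ± 0.90, 7.69 ± 0.12 and 9.75 ± 0.68 in the same order. Their gaps were 1.70 and 1.67, and their levels correlated at r = 0.998 with an average difference of 0.046. Spot 13213, in row 62 and column 98, had 8.49 ± 0.97 in the antenna, 6.86 ± 0.14 in the legs and 9.15 ± 0.60 in the proboscis. Its leg mean was the lowest of the 11 and sat at percentile 48.2 of all spots in that tissue, close to the middle of the array.

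The third near-identical pair was dimmer. Spot 3748, in row 18 and column 93, had 8.16 ± 0.31 in the antenna, 7.30 ± 0.15 in the legs and 8.57 ± 0.55 in the proboscis. Spot 20768, in row 97 and column 128, had 8.10 ± 0.29, 7.27 ± 0.20 and 8.59 ± 0.55. These levels correlated at r = 0.987 and differed by 0.080 on average. The highest leg level of spot 20768 was 7.52 and the lowest level elsewhere was 7.61, in a female antenna, a separation of 0.094 that was the narrowest of the 11.

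Of the remaining 3 spots, which like 12188 were higher in the antenna than in the proboscis, spot 14296 was the brightest. It lies in row 67 and column 106 and had 9.51 ± 0.68 in the antenna, 7.85 ± 0.16 in the legs and 9.03 ± 0.37 in the proboscis. Its leg level was the highest of the 11, at percentile 93.4 of all spots. Spot 8246, in row 39 and column 76, had 8.42 ± 0.36, 7.13 ± 0.098 and 8.02 ± 0.31. Spot 10719, in row 50 and column 184, had 8.27 ± 0.22, 7.38 ± 0.12 and 8.09 ± 0.31, and its gap of 0.71 was the smallest kept. At these spots the antenna and proboscis ranges overlapped.

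The rule's edges passed close to several other spots. All 8 leg levels lay below the other 16 at 31 of the 22575 spots (0.137%), a share that the rule itself used. Of these 31 spots, 18 had a gap of at least 0.7, and 7 of the 18 were left out because the antenna and proboscis differed by more than the gap. All 7 were higher in the antenna. The nearest spot below the margin was 8067, with a gap of 0.62, against 0.71 for spot 10719 inside it. The nearest spot beyond the limit on the antenna to proboscis difference was 9312, with a gap of 1.39 and a difference of 1.81. A further 20 spots met both criteria on the means but had leg levels that overlapped the rest. Spot 10719 left the set when any 1 of leg female replicates 1, 2 and 3, leg male replicate 1 and proboscis female replicates 1, 3 and 4 was left out. Spot 12188 left it without any 1 of proboscis female replicates 1, 2 and 4 and proboscis male replicates 1 and 2. With each sample scaled to 1 median in place of quantile normalisation, 4 of the 11 spots met the rule, which were 281, 17334, 13213 and 8246. The same rule turned to the other tissues kept 63 spots low in the antenna and 10 low in the proboscis.

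**Figure D2:**
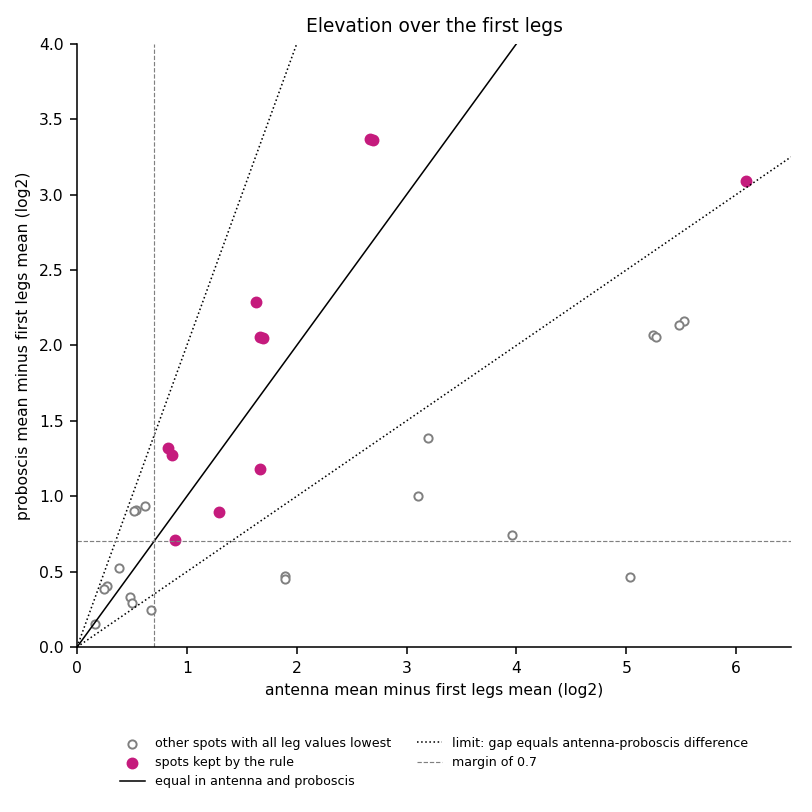
Proboscis mean minus leg mean (vertical axis, log2) against antenna mean minus leg mean (horizontal axis, log2) for the 31 spots whose 8 leg levels all lay lowest. Filled points are the 11 spots kept by the rule and open points the other 20; dashed lines mark the margin of 0.7 and dotted lines the limit on the antenna to proboscis difference, with spot 12188 just inside it at 6.09 and 3.09.

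The grid positions of the 3 near-identical pairs followed a common spacing. In each pair the spots lay exactly 79 rows apart, in different columns. This spacing was not particular to them. Among the 584 spots with a mean level of at least 8 that had a row at that distance, 253 (43.3%) had their most alike spot exactly 79 rows away, and the next most frequent row distance was shared by 53 spots. The files do not say whether such spots carry the same probe. With each pair counted once, the 11 spots hold 8 profiles, and counts past an unadjusted p are given both ways below.

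Likeness was measured as Pearson's r of the levels over the 24 samples, which share arrays, dyes and the tissue contrast that chose the spots. Within the 7 spots that were higher in the proboscis, r ran from 0.857 to 0.998 with a median of 0.960. The 5 brightest of these, 281, 17334, 3542, 20541 and 13213, gave 0.960 to 0.998. Within the 4 spots higher in the antenna r ran from 0.806 to 0.900, and between these groups of spots from 0.557 to 0.815. The groups were split by the same levels that gave r, which favours a higher r within than between them. The near-identical pairs all lie among the 7 spots higher in the proboscis and give the highest values there. The spot most like 12188 was 21605 (r = 0.986), which was kept out by the rule because its antenna to proboscis difference of 3.36 exceeded its gap of 2.16.

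Leg levels had a smaller SD than both other tissues at 10 of the 11 spots, a spread that the rule itself limits. At spot 12188 the leg SD of 0.41 exceeded the antennal SD of 0.23. The SD over 8 samples was 0.098 to 0.41 in the legs, 0.22 to 0.97 in the antenna and 0.31 to 0.97 in the proboscis. The leg means lay between percentiles 48.2 and 93.4 of all spots, with a median of 81.5. Their median was 7.27, against a median leg mean of 6.87 over all spots, so a high percentile here need not mean a level far above the rest. In Cy5 leg samples the brightness above background was smaller than the local background itself in 27 of 44 values. This held for 0 of 44 values in Cy3 leg samples and for 0 of 88 values in each dye in the other tissues. Over all spots of the array it held for 49.75 to 93.85% per Cy5 sample and for 0 to 0.63% per Cy3 sample. None of the 11 spots carried a quality flag in any sample, while 1090 spots of the array carried one in at least 1 sample.

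Dye and array set moved with the level of the bright tissues. The lowest of the 16 antennal and proboscis levels came from a Cy3 sample on the set of 8 arrays at 8 of the 11 spots. The median over the 11 spots was 8.29 and 8.39 in the 2 Cy3 antennae of that set and 9.22 to 10.07 in its 3 Cy5 antennae. In the proboscis it was 8.41 and 8.81 in the 2 Cy3 samples of that set, 9.26 and 9.30 in its 2 Cy5 samples, and 9.48 to 9.77 in the 4 samples of the other set. In the legs it ran from 7.02 to 7.31 in Cy3 and from 7.36 to 7.47 in Cy5. The part of dye and array set in the levels was not tested, and the gap is given within each below.

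The size of the gap differed between dyes, sexes, RIL numbers and array sets taken alone, while its sign was fixed by the rule, which put every leg level below all others. The median gap was 0.94 in Cy3 and 2.32 in Cy5, and the gap was larger in Cy5 than in Cy3 at 8 spots, each near-identical pair counting as 2. At spots 17334, 281, 3542, 20541 and 13213 it was 0.94 to 1.93 in Cy3 and 2.32 to 3.48 in Cy5. At the other spots it was 0.75 to 2.84 in Cy3 and 0.66 to 3.34 in Cy5, and smaller in Cy5 at 14296, 8246 and 10719. The median gap was 1.25 in females and 1.74 in males. It was 1.87 in RIL 58 and 1.33 in RIL 89. On the set of 8 arrays, with 7 leg samples, it was 1.62, and on the set of 4 arrays, with 1 leg sample, it was 1.08. The gap fell under 0.7 at 2 spots in the set of 4 arrays and at 1 spot each in Cy5, in males and in RIL 58.

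**Figure D3:**
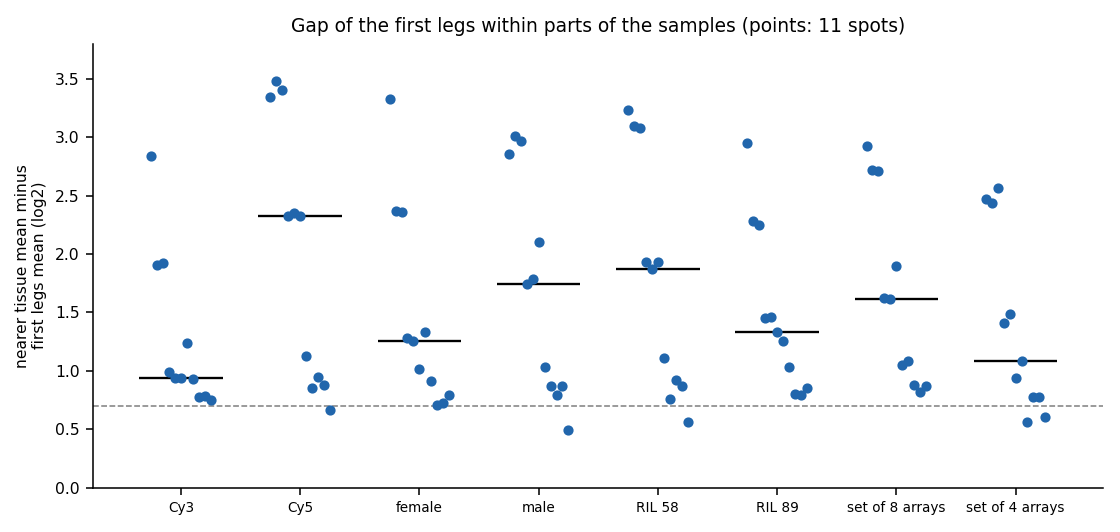
Gap between the leg mean and the nearer of the antenna and proboscis means (vertical axis, log2) computed within each dye, sex, RIL number and array set (horizontal axis). Points are the 11 spots, lines their medians and the dashed line the margin of 0.7; every gap is above 0, as the rule required, and the medians range from 0.94 in Cy3 to 2.32 in Cy5.

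On 4 arrays a leg sample was hybridised together with a sample of another tissue, which allows a comparison of levels within 1 array although in different dyes. The rule fixed the sign of these differences as well, so only their size is described. The smallest difference on an array was 0.46 to 0.99 and the median over spots 0.66 to 2.36. The lowest median was that of the array that held a male proboscis in Cy3 and a male leg in Cy5. The highest was that of the array that held a male antenna in Cy5 and a male leg in Cy3.

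Which of the bright tissues was higher depended on the samples compared. With females alone the antenna exceeded the proboscis at 3 of the 11 spots, and with males alone at 10. On the set of 8 arrays alone it did so at 8 spots, and on the set of 4 alone at 4. These counts take the spots of a near-identical pair separately and include near ties. In males alone, antenna minus proboscis was 0.003 at spot 17334, -0.019 at 281, 0.076 at 20768 and 0.14 at 13213. It was 0.22 to 3.21 at the other spots. The SD among males at spot 17334 was 1.26 in the antenna and 1.33 in the proboscis. On the set of 8 arrays alone, the difference was -0.025 to 0.071 at spots 281, 10719, 17334 and 13213. Sex, dye and array set are unevenly combined among these samples, and their parts in which bright tissue was higher were not tested. Sex differences within each tissue were not used by the rule. They were tested over all spots with limma. The model had tissue and sex, RIL number, dye, array set and dye by array set as terms and the array as a random block. A spot is called where its p, adjusted by Benjamini and Hochberg's method across the whole array of 22575 spots, is under 0.05. Fitted differences are given with their standard errors.

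In the proboscis, 10 of the 11 spots had lower fitted levels in males than in females, whereas 51.5% of all spots were higher in males. Counts of direction here and below take each near-identical pair as 2 spots. Of the 10 differences 1 was called, against 3 of 22575 spots (0.0133%). At an unadjusted p under 0.05 there were 3 spots, or 2 profiles since a pair was among them, against 3.21% of all spots. The called spot was 20768. Its levels were 9.22, 8.79, 9.01 and 9.26 in the 4 female proboscises and 8.13, 8.39, 8.01 and 7.89 in the 4 male ones. Every female level lay above every male level. The fitted male minus female difference was -0.82 ± 0.12 (limma, adjusted p = 0.0251). Its near-identical partner, spot 3748, had female levels of 8.79 to 9.27 and male levels of 7.96 to 8.20. These did not overlap either, but the difference of -0.75 ± 0.13 was not called (limma, adjusted p = 0.0796). These 2 were the only ones of the 11 spots whose sexes did not overlap in the proboscis, against 0.846% of all spots with female levels higher throughout and 0.465% with male levels higher throughout.

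The sizes of this difference in the dyes and array sets are given next. The lack of overlap fixed the sign of differences in levels, but not that of fitted differences. Within Cy3 the male minus female difference at spot 20768 was -0.95 and within Cy5 -0.98, with 2 samples of each sex in each dye. Fitted on the set of 8 arrays alone it was -0.94 ± 0.12 (limma, adjusted p = 0.0283) and on the set of 4 alone -0.89 ± 0.20 (adjusted p = 0.716). The fit on the set of 4 had no array block, because the array correlation could not be estimated there. Within a dye the male and female proboscises came from different array sets, and within an array set they were in different dyes. Sex in the proboscis thus coincided with the combination of dye and array set. The fit takes that combination's effect from the other tissues, as if equal in every tissue. Whether it was equal was not tested, and the fitted differences and standard errors rest on it. At spot 17334 male antennae on the set of 8 arrays had 8.34 in Cy3 and 10.64 to 11.03 in Cy5. Male legs there had 6.64 to 7.65 and 7.17 to 7.31. At spot 20768 these antennae had 7.81 and 8.18 to 8.44, and the legs 7.01 to 7.05 and 7.43 to 7.46. The call itself was close to the threshold. It was lost with the samples scaled to 1 median (-0.81 ± 0.20, adjusted p = 1.00) and when any 1 of 15 samples was left out, with differences of -0.84 to -0.75 and adjusted p of 0.0511 to 0.210. Those samples were antenna female replicates 1 and 3, antenna male replicate 3, leg female replicates 1, 2 and 4, leg male replicates 1, 2 and 3, proboscis female replicates 1, 2 and 4, and proboscis male replicates 1, 3 and 4.

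The other 9 spots gave no call in the proboscis, and 6 of them had opposite signs in the 2 dyes. Over all 11 spots, the males were lower at 10 in Cy3, with a median difference of -1.21, and at 6 in Cy5, with a median of -0.061. At spot 17334 the Cy3 females had 10.96 and 11.21 and the Cy3 males 8.73 and 9.46, whereas the Cy5 females had 10.41 and 10.94 and the Cy5 males 11.15 and 11.49. The male minus female difference at that spot was thus -1.99 in Cy3 and 0.64 in Cy5, and -0.55 ± 0.50 in the fit (limma, adjusted p = 1.00). At spot 12188 it was -1.07 ± 0.26 (limma, adjusted p = 0.923), with -1.25 in Cy3 and -0.061 in Cy5. The fitted value at spot 12188 varied with the arrays used. It was -1.45 ± 0.25 on the set of 8 arrays alone (adjusted p = 0.164), -0.04 ± 0.17 on the set of 4 alone (adjusted p = 0.967) and -0.53 ± 0.23 with 1 dye effect for all arrays (adjusted p = 0.217). Of the 24 fits that left out 1 sample, 23 did not call it, and the fit without antenna female replicate 3 did, at -1.33 ± 0.19 (adjusted p = 0.0279).

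**Figure D4:**
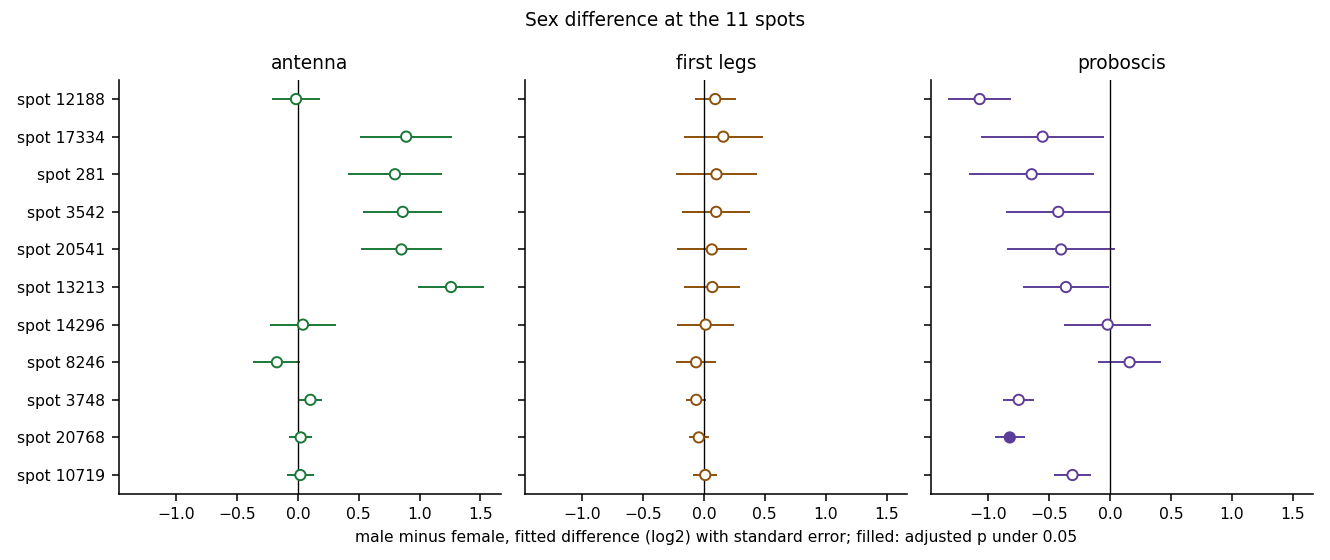
Fitted male minus female difference (horizontal axis, log2) with its standard error at each of the 11 spots (vertical axis) in the antenna, first legs and proboscis, from 4 samples of each sex per tissue. The filled point is the single call, spot 20768 in the proboscis at -0.82; all leg differences lie between -0.06 and 0.16.

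In the antenna, 9 of the 11 spots had higher fitted levels in males, against 50.1% of all spots. None was called, against 32 of 22575 spots (0.142%). At an unadjusted p under 0.05 there were 4 spots, or 3 profiles, against 8.63% of all spots. The differences were -0.17 to 1.26 with a median of 0.10, and the larger ones were those of the 5 bright spots that were higher in the proboscis. The largest was at spot 13213, whose levels were 7.62, 7.66, 8.46 and 7.81 in the female antennae and 9.17, 9.85, 9.74 and 7.63 in the male ones. Male replicate 4 lay within the female range, so the sexes overlapped. They overlapped at all 11 spots in the antenna, where 3.3% of all spots had male levels higher throughout and 1.76% female levels higher throughout. The fitted difference was 1.26 ± 0.27 (limma, adjusted p = 0.0969). Without male replicate 4 it was 1.86 ± 0.25 (adjusted p = 0.0020), and without leg female replicate 3 it was 1.44 ± 0.24 (adjusted p = 0.0173). At the pair of spots 3542 and 20541 the differences over all samples were 0.86 ± 0.32 (limma, adjusted p = 0.453) and 0.85 ± 0.33 (adjusted p = 0.481). Without male replicate 4 they were 1.61 ± 0.29 (adjusted p = 0.0220) and 1.60 ± 0.31 (adjusted p = 0.0432), so the size and the calls there turn on that 1 sample. It was the only male antenna in Cy3. Without it, at spot 13213 as well, no male and female antenna shared both dye and array set. Within the antenna, sex then cannot be told apart from that combination.

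Sex was tied to dye in the antenna, with 3 of the 4 female samples in Cy3 and 3 of the 4 male samples in Cy5. Within Cy3, where there was 1 male sample, males were lower at 9 spots, higher at 1 and equal at 1. Within Cy5, where there was 1 female sample, males were higher at 8 spots and lower at 3. The single male and the single female antenna that shared both dye and array set were female replicate 2 and male replicate 4, at 7.66 and 7.63 for spot 13213. Between those samples the male was higher at 5 spots, lower at 5 and equal at 1, with differences of -0.57 to 0.29. Within Cy5 the female came from the set of 4 arrays and the males from the set of 8, so array set and sex cannot be told apart there.

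In the first legs no spot of the 11 was called for sex, against 38 of 22575 spots (0.168%), and none had an unadjusted p under 0.05, against 6.68% of all spots. The fitted differences were -0.06 to 0.16, and the male and female levels overlapped at all 11 spots, where 0.266% of all spots had male levels higher throughout and 0.217% female levels. Standard errors ran from 0.080 at spot 20768 (difference -0.04) to 0.33, so the precision varied between spots. The rule favours spots with little spread in the legs.

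Whether the sex difference itself varied between the 3 tissues was tested with an F-test in the same model. None of the 11 spots was called, against 6 of 22575 (0.0266%), and 4 spots, or 3 profiles, had an unadjusted p under 0.05, against 5.07% of all spots. The smallest adjusted p was 0.144, at spot 20768. The F-test called spot 13213 without antenna male replicate 4 (adjusted p = 0.0210) and spot 3748 without antenna female replicate 4 (adjusted p = 0.0358). A contrast added after these values were seen took the sex difference in the antenna minus that in the proboscis. It was above 0 at 10 of the 11 spots, against 49.5% of all spots, with a median of 1.06 and a range of -0.33 to 1.62. It had an unadjusted p under 0.05 at 8 spots, or 5 profiles since all 3 pairs were among them, against 4.62% of all spots, and was called at none of the 22575, with a smallest adjusted p among the 11 of 0.371. Without antenna female replicate 4 it was called at spot 3748, at 1.07 ± 0.15 (limma, adjusted p = 0.0321).

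RIL number made no called difference at the 11 spots or at any spot (0%) in limma. The RIL 89 minus RIL 58 differences were -0.21 to 0.13, 0 of the 11 had an unadjusted p under 0.05, against 6.04% of all spots, and the smallest adjusted p was 0.855. Replicates 3 and 4 were set against replicates 1 and 2 as a possible batch. Of the 11 spots 0 were called, against 190 of 22575 (0.842%), and 4 spots, or 3 profiles, had an unadjusted p under 0.05, against 12.1%. In females replicates 1 and 2 were all RIL 58 and replicates 3 and 4 all RIL 89, so there the replicate contrast and the RIL contrast coincide and cannot be told apart. The differences were -0.67 to 0.31 and the smallest adjusted p was 0.303.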

How the data were processed

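Each of the 24 samples had 1 text file of 22575 spots, with linear intensity values of mean signal and mean local background for 1 dye channel, not normalised, per the file headers. A quality score per spot is also deposited, per the file headers. The deposited value table is the natural log of signal minus background, differing from the scanner files by at most 9e-08, with no normalisation between samples. Which software read the images is not given in sources used here. Levels are log2 values computed here from the deposited intensity values: background subtracted, floored at 0, offset by 50, quantile normalised. This form was kept as the main one because the rule uses it, with normexp as an alternative.

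Pairs of samples with identical quality scores at every spot were taken as the 2 channels of 1 array, giving 12 arrays, and the array sets came from splitting the sorted channel correlations where neighbours differed most. Both are inferred from the data. The limma model had 6 group means, RIL number, dye, array set and dye by array set as fixed terms, the array as a random block (correlation 0.549), a variance trend and 14 residual degrees of freedom. The contrast of replicates 3 and 4 with 1 and 2 replaced the RIL number in its own fit, with an array correlation of 0.493. Every fit on the set of 4 arrays alone left out the array block, because the array correlation could not be estimated there. Tests were two-sided and adjusted over all spots. Simulated data tested the script for the antennal sex difference only. The number of arrays limits the precision.

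The 11 spots, the tests and the rule for naming were chosen with earlier results of these data known. The rule names the spots with the largest gaps, levels and tissue differences and those called. The remaining spots, the neighbours of the rule's edges and spots 3748 and 13213 in the sex comparisons were named after their values were seen. Alternatives were normexp, no background correction, scaling to 1 median, the deposited table, leaving out the dimmest 25% of spots, 1 dye effect, each array set alone, no array block, no RIL term, the replicate number as a block, an offset of 20, a margin of 1, levels with the fitted dye, array set and RIL terms removed, and each sample left out. Fits used limma 3.58.1 and statmod 1.5.0 in R 4.3.3, and the rest numpy 2.4.6, pandas 2.3.3 and matplotlib 3.10.9 in Python 3.11.15.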

Additional observations from a re-analysis of the deposited data

Results flagged for a closer look

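In 4 of the 66 groups of 4 levels formed by the 11 spots, 1 sample stood far from the other 3 for the range of the group (Dixon's ratio). Chance flags about 1 in 20 groups, and the spots are not independent. All 4 were the same sample, male antenna replicate 4, as the lowest of its group. Its level was 8.34 at spot 17334, where the other 3 male antennae had 10.64 to 11.03. It was 8.19 at spot 3542, where the others had 10.29 to 10.52, and 8.17 at the near-identical spot 20541, where they had 10.14 to 10.46. At spot 3748 it was 7.82, against 8.40 to 8.51. Before normalisation its brightness above background at spot 3748 was the highest of the group, 215 against 114 to 147, so it was lowest there only as normalised. At spots 17334, 3542 and 20541 it was the lowest before normalisation as well. This sample was the only male antenna in Cy3, and the other 3 were in Cy5. The part of the dye in these values was not tested.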

How the results depend on the processing

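Membership depended on the processing. Of the 11 spots, 6 were kept without background correction, 4 with each sample scaled to 1 median and 7 with a margin of 1, with no others. The rule kept 14 with normexp and 14 with an offset of 20, each with all 11, and 13 with the fitted dye, array set and RIL terms removed, which lost 12188. Leaving out 1 sample kept 9 to 14, and the spots lost were 10719, 12188 or both. The count of the 11 called for sex in the proboscis was 1, and became 0 scaled to 1 median, 3 with 1 dye effect for all arrays (where 1146 of all spots were called), 2 on the set of 8 arrays, 0 on the set of 4, 2 without the RIL term and 0 with the replicate number as a block, where spot 20768 had -0.82 ± 0.14 (adjusted p = 0.171). Leave-outs gave 0 to 2 in the proboscis, 0 to 3 in the antenna, 0 to 1 for sex by tissue and 0 to 1 for the added contrast. The 2 in the proboscis came without antenna female replicate 2 or 4 or antenna male replicate 4, and the 3 in the antenna without antenna male replicate 4. With 1 dye effect, 2 spots were called for sex by tissue and 2 for the added contrast, and on the set of 8 arrays 1 for sex by tissue. The cause was not tested. The replicate block changed no other count of calls among the 11. Deviations from group means, with dye and array set removed, correlated at -0.35 to 0.50 (median 0.17) in 54 same-numbered pairs and at -0.65 to 0.46 (median -0.096) in 174 others, and 16 of 24 samples correlated best with their own number, a hint of pairing from the data that the design does not state. No sign turned among the 5 sex differences followed through all settings. These were picked for the smallest unadjusted p among the 11 spots, 3 in the proboscis and 2 in the antenna. Their steady signs are therefore no support for the direction, and other directions were not followed. On the set of 4 arrays the sex differences in the antenna and legs could not be estimated. Leg levels near background and tied top ranks limit how finely the gap and spot 12188 can be read.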
